A study of Mus musculus with 6 samples.

Results

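Caspases are cysteine proteases that cut their targets after aspartate, and 5 of them are described here with 3 genes whose products act directly on them. The 8 members, Casp1, Casp2, Casp6, Casp8, Casp9, Apaf1, Cflar and Xiap, were chosen by gene name among the 15553 genes of the deposited table, with earlier results of these data known. Presence in that table, which the authors had already filtered, was the measured condition, and the knockout against wild type values of the members are therefore given as a description. Their fitted p-values say only where they lie in a fit of the whole table. All 8 were present, and all 8 had at least 1 RPKM (reads scaled by gene length and library size) in at least 3 libraries, the condition for being tested.

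The libraries hold RNA of hematopoietic stem cells from bone marrow (C57BL/6 mice, 6 to 8 weeks old), within the Lin- Sca1+ c-Kit+ gate. The labels disagree on the finer gate: 1 field names CD150+ cells, while another names both CD150+ and CD150- cells, each CD48-. The 3 wild-type libraries carry the genotype Mx1-Cre and the 3 knockout libraries Yy1f/f;Mx1-Cre, so both groups share the Cre transgene and differ in the floxed Yy1 alleles. Mx1-Cre is driven by an interferon-inducible promoter that acts in blood cells and in other tissues, and the sources used here do not say how it was induced. The study asked what the loss of YY1, a zinc-finger and Polycomb group protein, does to stem cell quiescence. Whether the libraries of a genotype came from separate mice is not stated, so p-values measure the spread between these libraries, which may be technical.

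In the extrinsic pathway, death receptors assemble a complex in which the adaptor FADD brings caspase-8 molecules together so that they activate each other. The protein of Cflar, known as c-FLIP, resembles caspase-8 without its protease activity and competes for that complex. In the intrinsic pathway, cytochrome c released from mitochondria makes APAF1 assemble into the apoptosome, which activates caspase-9. Both routes feed executioner caspases, and XIAP binds and blocks caspase-9 and some executioners. Caspase-2 is activated on the PIDDosome, and caspase-1 on inflammasomes, where it matures interleukins. Caspases are made as inactive precursors, so RNA levels do not measure their activity.

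The members sit at 7 chromosomes of mm10, with positions from GENCODE M21 (GRCm38). Cflar (ENSMUSG00000026031, chromosome 1: 58711508 to 58758884) and Casp8 (ENSMUSG00000026029, chromosome 1: 58795374 to 58847503) are neighbours on the same strand, 36489 bases apart, with no protein-coding gene between them. Casp2 (ENSMUSG00000029863) lies at chromosome 6: 42264985 to 42282508, and Casp9 (ENSMUSG00000028914) at chromosome 4: 141793612 to 141815976. Apaf1 (ENSMUSG00000019979) lies at chromosome 10: 90989311 to 91082770, and Xiap (ENSMUSG00000025860) at X: 42059679 to 42109656. Casp6 (ENSMUSG00000027997) lies at chromosome 3: 129901425 to 129914103, and Casp1 (ENSMUSG00000025888) at chromosome 9: 5298517 to 5307265. Values cover all exons of a gene, so the long and short forms of c-FLIP, among 13 annotated Cflar transcripts, are summed. Casp9 alone shares exonic sequence with other genes, 94 bases (1.81% of its exonic length) with Ctrc and Cela2a on the opposite strand.

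The promoters of the neighbours Cflar and Casp8 are shown because these genes stood apart between the genotypes in opposite directions, and that of Cradd, described below, because it had the largest difference among the pathway genes. Each is a RefSeq window of GRCm38.p6 that runs from 250 bases before the start of transcription to 50 bases after it. Capitals mark matches to AANATGG, a core of the sequence that YY1 is known to bind, on either strand, where the reverse strand reads CCATNTT.

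Cflar, chr1:58711241-58711540, plus strand: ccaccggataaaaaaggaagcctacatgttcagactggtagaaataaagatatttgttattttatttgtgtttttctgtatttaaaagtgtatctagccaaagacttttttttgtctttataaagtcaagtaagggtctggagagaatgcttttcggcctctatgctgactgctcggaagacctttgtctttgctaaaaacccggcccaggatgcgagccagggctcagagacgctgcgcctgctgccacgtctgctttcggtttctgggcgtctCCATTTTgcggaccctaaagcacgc

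Casp8, chr1:58802252-58802551, plus strand: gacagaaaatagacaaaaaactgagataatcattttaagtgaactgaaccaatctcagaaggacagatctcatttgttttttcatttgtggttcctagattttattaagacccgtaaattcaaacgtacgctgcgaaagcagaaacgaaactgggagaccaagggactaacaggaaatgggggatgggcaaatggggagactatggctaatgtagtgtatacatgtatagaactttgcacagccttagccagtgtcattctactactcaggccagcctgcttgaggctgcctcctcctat

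Cradd, chr10:95324088-95324387, minus strand: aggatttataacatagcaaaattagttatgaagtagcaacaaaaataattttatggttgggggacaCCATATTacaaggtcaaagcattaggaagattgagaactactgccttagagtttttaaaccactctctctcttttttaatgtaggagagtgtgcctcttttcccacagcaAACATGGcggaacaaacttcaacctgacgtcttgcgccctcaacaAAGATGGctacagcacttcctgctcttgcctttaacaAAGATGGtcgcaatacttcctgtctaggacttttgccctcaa

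The Cflar window holds 1 match, which begins 25 bases after the start. The Casp8 window holds none of these letters, and it lies inside the GENCODE gene, not at its first annotated base. The Cradd window holds 4 matches, at positions -184, -74, -29 and 8 from the start, and those at -74 and -29 also match the longer form AANATGGC. Of the 10 windows listed for the 8 members, 2 held AANATGG, in Cflar and in 1 of 3 Xiap windows, and 0 held AANATGGC. Over all 32851 windows of the RefSeq table the shares were 16.1% and 6.05%. The matches describe letters only, and no binding was measured here.

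Reads recovered from the RPKM values numbered 15102983 to 21757039 per library. Yy1 stood at 31.6, 42.3 and 52.1 RPKM in wild type replicates 1 to 3 and at 36.2, 16.6 and 28.5 RPKM in the knockout replicates, so wild type enclosed the library labelled Yy1 knockout replicate 1. These values sum all exons of Yy1, and the sources used here do not say which exon is deleted, so they check the labels only in part. All 10 stem cell markers examined were detected, with summed levels of 598 to 675 RPKM in wild type and 428 to 446 RPKM in knockout. Of the B cell markers 1 of 6 was in the table, at 13.25 to 28.6 RPKM in wild type and 9.15 to 21.4 RPKM in knockout. The 1 of 7 T and NK cell markers in it stood at 4.76 to 15.3 RPKM in wild type and 3.99 to 8.72 RPKM in knockout. The 4 of 7 erythroid markers in it summed to 27.7 to 45.4 RPKM in wild type and 30.1 to 61.7 RPKM in knockout. All 9 granulocyte markers were in the table, and their sum varied widely between libraries. It was 75.8, 173 and 19.8 RPKM in wild type replicates 1 to 3 and 37.7, 302 and 55.9 RPKM in the knockout replicates. The 10 markers of dividing cells summed to 114 to 176 RPKM in wild type and to 380 to 399 RPKM in knockout, and whether this difference bears on the caspase genes was not tested. In these bulk libraries, a different number of cells of a type and a different amount of RNA per cell cannot be told apart.

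Casp8 lay higher, and Cflar and Casp9 lower, in all 3 knockout libraries than in all 3 wild-type libraries, while the other 5 members overlapped. Over all 13179 tested genes the genotypes did not overlap in 14.5%, with the knockout higher in 7.63% and lower in 6.87%. None of the 8 members had an adjusted p under 0.05 in limma, where the share over all tested genes was 0.00%. At an unadjusted p under 0.05 there was 1 member, Casp8, where the share over all genes was 7.79%. The members had a median log2 fold change of 0.07, beside 0.02 over all tested genes. In a limma-voom fit of the recovered reads 0 members passed, and 0.0458% of all genes did.

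**Figure D1:**
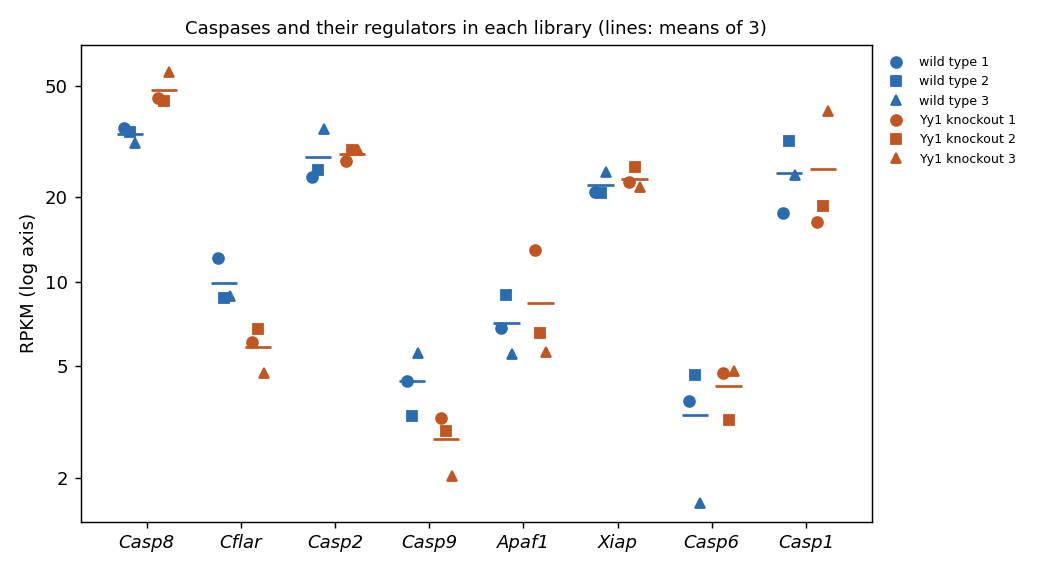
RPKM on a log axis for each of the 8 genes in the 3 wild-type libraries (blue) and the 3 Yy1 knockout libraries (orange), with a marker shape for each replicate number and a line at each mean. Casp8 separates upward and Cflar and Casp9 downward in the knockout libraries, the last by a narrow margin (3.33 RPKM against 3.28 RPKM), and the other 5 genes overlap.

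Casp8, the initiator caspase of the death receptor route, stood at 35.4, 34.2 and 31.2 RPKM in wild type replicates 1 to 3 and at 45.1, 44.2 and 55.7 RPKM in the knockout replicates. The lowest knockout library lay above the highest wild-type library, and knockout replicate 3 was the highest of all. Means were 33.6 ± 2.19 and 48.4 ± 6.41 RPKM (SD, n = 3 each, as for all later means), a ratio of 1.44. Fitted on log2(RPKM + 0.5), the log2 fold change was 0.51 (standard error, SE, 0.18) and its 95% interval 0.10 to 0.93. In limma the unadjusted p was 0.0221 and the adjusted p 0.572, so the difference did not pass. Between 1324 and 3150 reads per library lay behind these values, and the smallest of these carries a counting error of 2.75%.

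Cflar, the gene of the caspase-8 regulator c-FLIP, stood at 12.2, 8.80 and 8.88 RPKM across wild type, against 6.12, 6.78 and 4.75 RPKM across knockout. Each knockout library lay below each wild-type library, and wild type replicate 1 stood above the other wild-type libraries. Means were 9.95 ± 1.93 and 5.88 ± 1.04 RPKM, so the wild-type mean was 1.69 times the knockout mean. Cflar had a fitted log2 fold change of -0.71 (SE 0.31, 95% interval -1.43 to 0.02), with a limma adjusted p of 0.645. The authors' deposited table gave Cflar a log2 fold change of -0.75 at an unadjusted p of 0.00738 and an adjusted p of 0.470. There Casp8 had a log2 fold change of 0.53 at an unadjusted p of 0.0352 and an adjusted p of 0.601. Among all genes of the authors' deposited table, 8.02% had an unadjusted p under 0.05 and 0.154% an adjusted p under 0.05, and Cflar and Casp8 were the 2 members under the former.

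Taken within each library, the Cflar to Casp8 ratio of RPKM was 0.344, 0.257 and 0.285 in the wild-type libraries against 0.136, 0.153 and 0.0852 in the knockout ones. The ratio was formed after the opposite directions of its parts had been seen, so it is a description. Its mean was 0.295 ± 0.0441 in wild type and 0.125 ± 0.0354 in knockout. The mean of its log2 values differed by -1.28, knockout minus wild type. Casp8 RNA exceeded Cflar RNA per length in every library of both genotypes. The lengths used were merged exons of all transcripts, 12669 bases for Cflar and 2893 for Casp8, and the order depends on them. In reads, Cflar lay above Casp8 across wild type, at 1993, 1796 and 1664 against 1324, 1594 and 1333. Across knockout it lay below, at 1349, 1503 and 1175 reads against 2270, 2239 and 3150. Without the library labelled Yy1 knockout replicate 1, Casp8 had a log2 fold change of 0.56 and Cflar one of -0.74.

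**Figure D2:**
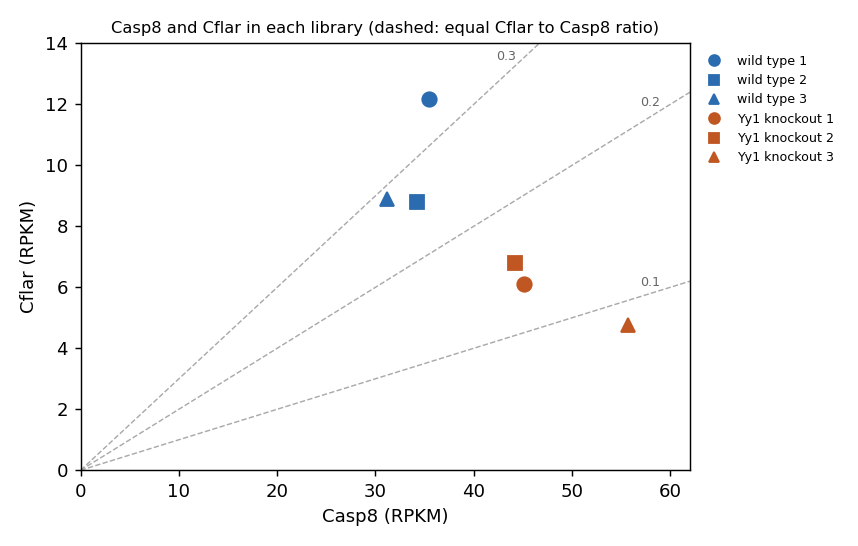
Cflar (vertical axis) against Casp8 (horizontal axis), both in RPKM, with 1 point for each library and dashed lines of equal Cflar to Casp8 ratio. The wild-type libraries (blue) lie at ratios of 0.257 to 0.344 and the knockout libraries (orange) at 0.0852 to 0.153.

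The genes around caspase-8 were read from a list of death receptors and their complexes, of whose 17 genes 15 were tested. None passed in limma, and the median log2 fold change was 0.19. Of these genes 10 lay above 0 and 5 below, beside 6842 and 6337 of all 13179 tested genes. Fadd, the adaptor of caspase-8, stood at 3.29, 3.50 and 3.41 RPKM across wild type, against 4.005, 4.22 and 3.97 RPKM across knockout, without overlap, with a log2 fold change of 0.23 and a limma adjusted p of 0.913. Ripk3, a kinase of necroptosis that caspase-8 restrains, had the smallest p of the list. It stood at 27.0, 20.3 and 17.6 RPKM across wild type, against 27.2, 31.3 and 49.1 RPKM across knockout, a log2 fold change of 0.69 (SE 0.28, limma adjusted p 0.628). The nearest libraries, 27.0 and 27.2 RPKM, nearly touched. The most abundant gene of the list was Cul3, a ubiquitin ligase scaffold, at 46.5 ± 6.52 and 48.9 ± 4.82 RPKM. The death receptor gene Fas fell under the filter, at 0.0859, 0.138 and 0.488 RPKM across wild type, against 0, 4.25 and 1.53 RPKM across knockout.

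Casp9, the initiator caspase of the apoptosome, stood at 4.44, 3.33 and 5.60 RPKM across wild type, against 3.28, 2.95 and 2.03 RPKM across knockout. The genotypes did not overlap, but wild type replicate 2 and knockout replicate 1 differed by less than their counting error, with 279 and 297 reads behind 3.33 and 3.28 RPKM. After quantile normalization these libraries stood at 3.01 and 3.30 RPKM, and the genotypes of Casp9 overlapped. Means were 4.46 ± 1.13 and 2.75 ± 0.650 RPKM. Casp9 had a log2 fold change of -0.60 (SE 0.43, 95% interval -1.60 to 0.40) and a limma adjusted p of 0.783. Without knockout replicate 3, the lowest library, it was -0.43.

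Apaf1, whose protein forms the apoptosome, stood at 6.83, 8.999 and 5.53 RPKM across wild type, against 13.0, 6.58 and 5.64 RPKM across knockout. Knockout replicate 1 was the highest library, and the other knockout libraries lay within the wild-type range. For Apaf1 the fitted log2 fold change was 0.16, with a 95% interval of -0.77 to 1.09 and a limma adjusted p of 0.945. Without knockout replicate 1, it was -0.18. The summed level of the 6 markers of megakaryocytes was also highest in that library, at 104 RPKM. Their sum was higher in every knockout library, with 51.3 and 52.6 RPKM in replicates 2 and 3, than in wild type, at 19.5 to 36.5 RPKM, and their part in the member values was not tested.

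Xiap, the inhibitor of caspase-9 and of some executioners, was the steadiest member. It stood at 20.9, 20.7 and 24.7 RPKM across wild type, against 22.6, 25.6 and 21.7 RPKM across knockout, with wide overlap. Its log2 fold change was 0.08 (SE 0.20, 95% interval -0.38 to 0.53, limma adjusted p 0.947). Set against Casp9 within each library, the Xiap to Casp9 ratio was 4.70, 6.21 and 4.41 in the wild-type libraries against 6.88, 8.69 and 10.7 in the knockout ones, which follows the lower Casp9 values. The Apaf1 to Casp9 ratio overlapped, at 1.54, 2.70 and 0.988 in the wild-type libraries against 3.96, 2.23 and 2.78 in the knockout ones. Both ratios are descriptions.

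Of the 7 further genes of the apoptosome and of mitochondrial release, 6 were tested, none passed in limma, and their median log2 fold change was 0.04. Cycs, the cytochrome c gene, stood at 3.14, 8.59 and 7.35 RPKM across wild type, against 15.9, 9.45 and 11.4 RPKM across knockout. It had no overlap, a log2 fold change of 0.97 (SE 0.42) and a limma adjusted p of 0.645. Ptma, the prothymosin alpha gene and the most abundant of the list, stood at 296 ± 72.2 and 236 ± 8.70 RPKM. Among the 9 tested genes of the inhibitor of apoptosis family and its antagonists, 6 lay above 0 and 3 below, beside 6842 and 6337 over all tested genes. None of the 9 passed in limma, and their median was 0.07. Birc2, the gene of cIAP1, was the most abundant at 29.1 ± 2.86 and 24.4 ± 7.19 RPKM. Naip2, a sensor gene of the NLRC4 inflammasome, had the smallest p of the list. It stood at 5.24, 6.10 and 9.22 RPKM across wild type, against 1.98, 3.87 and 3.77 RPKM across knockout, without overlap (log2 fold change -1, limma adjusted p 0.639). The Naip genes are close paralogs that can share reads, so the Naip2 value is uncertain. Naip5, another of them, lay the other way without overlap, at 13.2, 16.4 and 15.6 RPKM across wild type, against 18.0, 17.9 and 20.3 RPKM across knockout (log2 fold change 0.31, limma adjusted p 0.774). Birc5, the survivin gene, which also acts in cell division, stood at 12.1, 5.91 and 0.457 RPKM across wild type, against 18.8, 12.4 and 12.6 RPKM across knockout. Its groups did not overlap, and its log2 fold change was 1.80 (SE 0.87, limma adjusted p 0.676). The nearest libraries differed little, at 12.1 and 12.4 RPKM. Birc5 is itself 1 of the 10 markers of dividing cells whose sum was higher in knockout.

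Casp2, the caspase of the PIDDosome, stood at 23.5, 25.0 and 35.1 RPKM across wild type, against 27.0, 29.6 and 29.4 RPKM across knockout. All 3 knockout libraries lay within the wild-type range, which wild type replicate 3 widened. The log2 fold change was 0.06 with a 95% interval of -0.44 to 0.56 and a limma adjusted p of 0.960.

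Cradd, the gene of the adaptor RAIDD that joins caspase-2 to PIDD1, stood at 0.610, 0.865 and 1.72 RPKM across wild type, against 3.69, 6.17 and 6.95 RPKM across knockout. The groups lay well apart, with an estimated 37, 66 and 121 reads against 306, 513 and 646. The knockout mean was 5.26 times the wild-type mean. Fitted on log2(RPKM + 0.5), the log2 fold change was 1.98 (SE 0.52, 95% interval 0.77 to 3.19). With an unadjusted p of 0.00569 and an adjusted p of 0.451 in limma, Cradd did not pass either. The authors' deposited table gave Cradd a log2 fold change of 2.46 at an unadjusted p of 0.0881 and an adjusted p of 0.678. Pidd1, the gene of the scaffold itself, overlapped widely, at 3.72 ± 3.03 and 4.203 ± 0.736 RPKM.

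Casp6, an executioner caspase, was among the thinnest members, with 135 to 527 reads per library. It stood at 3.77, 4.67 and 1.63 RPKM across wild type, against 4.72, 3.21 and 4.83 RPKM across knockout. Wild type replicate 3 was the lowest library, and the other libraries of both genotypes lay among each other. For Casp6 the fitted log2 fold change was 0.38, with a 95% interval of -0.75 to 1.51 (limma adjusted p 0.876), and without that library it was -0.0012.

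A further list of caspase genes and a caspase-binding protein had 3 tested genes, all with overlapping genotypes. Casp8ap2, which encodes a protein named for binding caspase-8, had the smallest p of the list, with a log2 fold change of 0.18 (SE 0.30, limma adjusted p 0.915). The inflammatory caspase gene Casp4, the most abundant of them, stood at 12.6 ± 4.07 and 11.3 ± 2.63 RPKM, a log2 fold change of -0.13, and Casp12 had a value of 0.15. Of the 15 listed caspase substrates 13 were tested, 5 above 0 and 8 below, beside 6842 and 6337 over all tested genes. The median of the 13 was -0.06, and none of them passed in limma. Lmnb1, the gene of lamin B1 of the nuclear lamina, had the smallest p of all pathway genes. It stood at 43.3, 48.4 and 37.4 RPKM across wild type, against 87.8, 74.5 and 63.3 RPKM across knockout, a log2 fold change of 0.79 (SE 0.19, limma adjusted p 0.429). Vim, the vimentin gene and most abundant substrate, stood at 65.2 ± 7.46 and 68.0 ± 11.3 RPKM.

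Casp1, the inflammasome caspase, varied most among the members. It stood at 17.6, 31.7 and 24.1 RPKM across wild type, against 16.3, 18.7 and 40.5 RPKM across knockout. Knockout replicate 3 was the highest library and knockout replicate 1 the lowest, so the knockout range enclosed the wild-type one. The log2 fold change was -0.04 with a 95% interval of -0.93 to 0.85 and a limma adjusted p of 0.988. The 6 monocyte and macrophage markers in the table, of 9 listed, summed to 84.2, 106.5 and 130 RPKM in wild type and to 74.2, 81.3 and 119 RPKM in knockout. Casp1 and this sum were both highest in replicate 3 and lowest in replicate 1 of the knockout libraries. In wild type both were lowest in replicate 1, but Casp1 was highest in replicate 2 and the sum in replicate 3. Their relation was not tested. Of 12 further inflammasome and pyroptosis genes 7 were tested, with a median of 0.07 and none past in limma. Serpinb1a, an inhibitor of granule proteases and the most abundant of them, stood at 41.7, 48.2 and 44.9 RPKM across wild type, against 40.3, 32.4 and 28.0 RPKM across knockout, a log2 fold change of -0.43 (limma adjusted p 0.663).

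**Figure D3:**
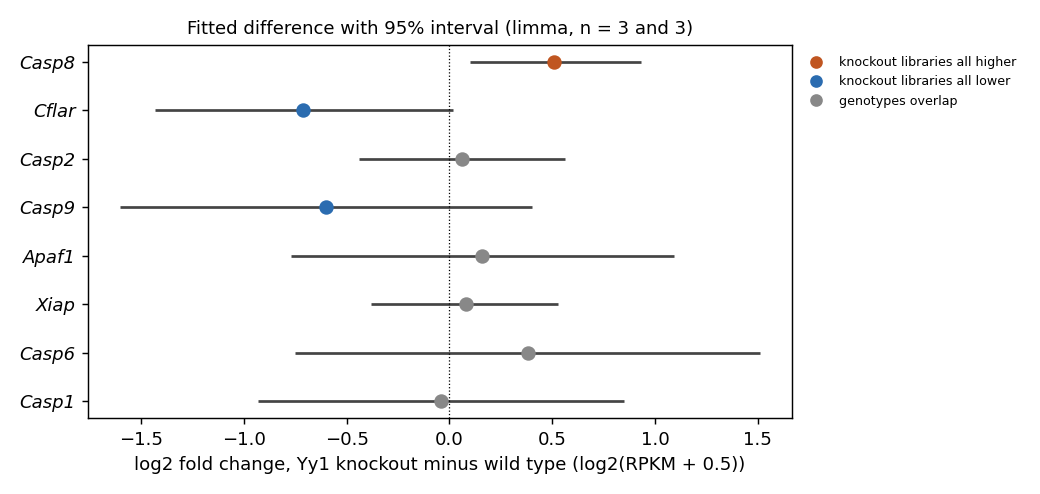
Fitted log2 fold change of each of the 8 genes, knockout minus wild type on the log2(RPKM + 0.5) scale, with its 95% interval from limma (3 libraries per genotype). The interval of Casp8, 0.10 to 0.93, lies above 0 before adjustment over all genes, and the other 7 include 0.

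Across the lists 55 of 67 pathway genes were tested and 0 passed in limma. At an unadjusted p under 0.05, 3 lay higher (Cradd, Ripk3 and Lmnb1) and 1 lower (Naip2), beside the 7.79% of all genes. In 8 the knockout libraries all lay higher and in 2 all lower, beside 7.63% and 6.87%. The median log2 fold change was 0.07, the same as for the members to 2 decimals. The genes Naip1, Fas, Nlrp1b, Nlrc4 and Dfna5 (the older symbol of Gsdme, also listed) fell under the filter, and Casp14, Endog, Fasl, Nlrp3, Mefv and Il1b were not analysed here.

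**Figure D4:**
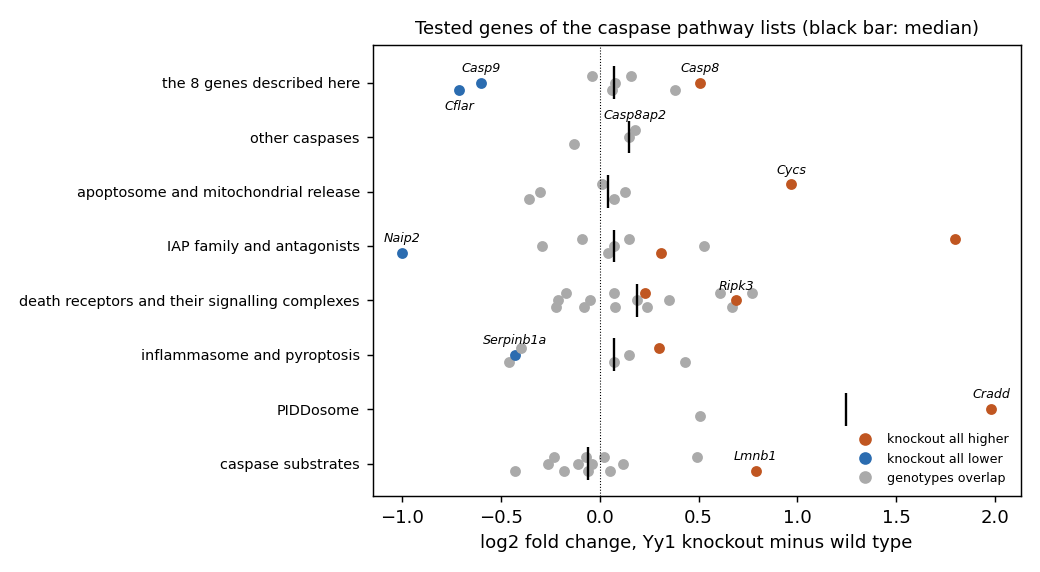
Log2 fold change, knockout minus wild type, of every tested gene in 7 pathway lists and of the 8 genes described here, with a black bar at each median. Colour marks genes whose genotypes do not overlap. Labels name the 3 members without overlap and the gene of smallest p in each list, such as Cradd at 1.98 and Cycs at 0.97.

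Level per length divides reads by the merged exonic length of all transcripts, so an order between genes depends on that length. In this order, Casp8 led in both genotypes, followed by Casp2, Casp1 and Xiap. In wild type the ranges of neighbours among these 4 overlapped, while in knockout Casp8 stood clear of Casp2. Xiap stood clear of the gene next below it in both genotypes. That gene was Cflar in wild type (9.95 RPKM) and Apaf1 in knockout (8.41 RPKM), and Cflar and Apaf1 overlapped each other in both. The lowest mean belonged to Casp6 in wild type (3.36 RPKM) and to Casp9 in knockout (2.75 RPKM), whose ranges overlapped in both, in knockout only between 3.21 and 3.28 RPKM.

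The spread between libraries of one genotype differed widely among the members. The pooled SD of log2(RPKM + 0.5) was 0.132 for Xiap and 0.146 for Casp8, beside a median of 0.486 over all tested genes. For Cflar it was 0.249, for Casp2 0.223 and for Casp9 0.320, while Apaf1 (0.488), Casp6 (0.518) and Casp1 (0.574) lay at or above that median. The limma standard errors draw these spreads toward those of genes of like level.

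Over the 6 libraries, the gene most like Casp8 in log2(RPKM + 0.5) was the phosphatase gene Ppm1b (Pearson r = 0.989, Spearman rho = 0.943). For Cflar it was the nucleotidase gene Cant1 (0.989 and 1), and for Casp9 the keratin-binding protein gene Tchp (0.998 and 1). Casp2 was most like Grsf1 (0.991 and 0.943) and Casp6 most like Rufy3 (0.992 and 1). Apaf1, Xiap and Casp1 were most like the processed pseudogenes Gm2272 (0.992), Ppp1r2-ps4 (0.970) and Gm12096 (0.985). With only 6 libraries, which share their depth and scaling between genes, the highest r of a tested gene with any other had a median of 0.993 over all 13179 genes, and of the members only Casp9 lay above it.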

How the data were processed

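RNA sequencing of 3 wild-type and 3 Yy1 knockout libraries was read from 1 deposited table of 15553 genes. Subread, featureCounts, edgeR, limma and the build mm10 are named in the submitters' processing notes. Their versions, settings and gene filter are not given in the sources used here. Deposited library values are RPKM, as the values themselves show: multiplied by exonic length from GENCODE M21 they were whole multiples of 1 step, within 0.02 reads in all 6 libraries, for 11108 of 15465 genes with a length. Of the members, Xiap was not among these 11108, so its reads are estimates. Per the file headers, the authors also deposited log2 fold changes and p-values per gene, raw and adjusted.

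The 13179 genes that reached 1 RPKM in 3 or more libraries were tested on log2(RPKM + 0.5) with limma 3.58.1 (R 4.3.3), genotype as the only term, a variance trend and Benjamini-Hochberg adjustment at 0.05. This scale understates changes of low genes. The fit was tested on simulated data. Recovered reads, at 15102983 to 21757039 per library, gave counting errors, which are lower limits because the library kit amplifies RNA. Members and lists were chosen with earlier results of these data known, and some pathway genes are not reported here. The named genes were all members, the gene of smallest p and the most abundant gene of each list, and for each member the gene of highest Pearson r. Fadd, Birc5, Naip5, Casp12 and the genes under the filter were named after their values were seen.

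Alternatives were other pseudocounts (0.1 and 1), no filter, a filter at 5 RPKM, no variance trend, quantile normalization, a replicate block, limma-voom on recovered reads and leaving out each library.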

Additional observations from a re-analysis of the deposited data

How the results depend on the processing

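No member and no pathway gene passed under any alternative run. Over the whole table the number of genes past an adjusted p of 0.05 was 0 in limma, where 1027 genes had an unadjusted p under 0.05. It was 6 in limma-voom on recovered reads, which used total reads per library without a further scaling factor. With 1 library left out it was 0 to 1 (1 without wild type replicate 1 and 1 without wild type replicate 2). In the authors' deposited table, 24 of 15553 genes had an adjusted p under 0.05. Casp8 stayed above 0 and Cflar and Casp9 below 0 throughout, with leave-one-out ranges of 0.41 to 0.57, -0.81 to -0.56 and -0.77 to -0.43 (log2), and Xiap stayed above 0, at 0.01 to 0.16. The signs of Apaf1 (-0.18 to 0.39), Casp1 (-0.44 to 0.21), Casp2 (-0.05 to 0.24) and Casp6 (-0.0012 to 0.64) changed with the library left out, and Casp1 was 0.02 in limma-voom. Members without overlap numbered 3 to 5 with 1 library left out. The share over all tested genes was then 22.1% to 27%, against 14.5% with all 6 libraries. After quantile normalization 2 members did not overlap, as Casp9 then overlapped, and the share over all genes was not computed there. Without wild type replicate 3 there were 5, Casp2 and Xiap being added, where 26.8% of all tested genes did not overlap. The median of the members ranged from 0 to 0.10 with 1 library left out and was 0.13 in limma-voom. The Cflar to Casp8 log2 difference, an alternative added after the data were seen, ranged from -1.45 to -1.02. With the replicate block, the adjusted p was 0.616 for Casp8 and 0.649 for Cflar, and 0 genes and 0 members passed. Deviations from the group means correlated at 0.0152, 0.0593 and 0.0467 between same-numbered libraries. Between different-numbered libraries they correlated at -0.0758 to 0.0353. These small values show no strong pairing, and with 3 libraries per genotype they do not settle whether a weak one exists. Depth limits Casp6 and Casp9 most, at 135 and 206 reads in their thinnest libraries. The filter at 5 RPKM leaves out Casp6 and Casp9.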
